A study of Mus musculus with 22 samples.

Results

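CD44LowKitPos cells were compared with CD44Neg cells of the same embryonic stages in bulk RNA-seq of the mouse aorta-gonad-mesonephros (AGM) region, the part of the embryo in which the first blood stem cells form in the wall of the aorta. The libraries were chosen by their labels alone: 3 of CD44LowKitPos cells (1 at E9.5, replicate 19, and 2 at E10, replicates 17 and 18) and 7 of CD44Neg cells (4 at E9.5, replicates 4 to 7, and 3 at E10, replicates 8 to 10), which is 10 of the 22 libraries of the series. E11 was left out because it has no CD44LowKitPos library. Each library held 25 cells sorted by flow cytometry from untreated C57BL/6 embryos, and both populations were positive for VE-cadherin (VE-Cad, encoded by Cdh5), the adhesion protein that marks endothelium. CD44Neg cells, labelled as endothelial, lacked the hyaluronan receptor CD44 on their surface. CD44LowKitPos cells, labelled as pre-HSPC (precursors of haematopoietic stem and progenitor cells), had a low level of CD44 and were positive for Kit, the receptor of stem cell factor. The comparison asks which genes separate endothelium from the VE-Cad-positive cells that have entered the blood programme.

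Blood stem and progenitor cells of the embryo arise from endothelium in a process called the endothelial to haematopoietic transition (EHT). A flat cell of the arterial wall switches on RUNX1 and other blood transcription factors, loses the junctions and the matrix that tie it to its neighbours, rounds up and joins a cluster attached to the vessel wall. While the switch is under way, endothelial and blood genes can be active in the same cell.

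Between 5891679 and 6965898 reads were counted per CD44LowKitPos library and between 4049022 and 7132809 per CD44Neg library. CD44LowKitPos libraries detected 12200 to 12627 genes and CD44Neg libraries 10825 to 11951. Paired within a population and stage, libraries differed by far more than counting error in all 10 pairs (chi-square per degree of freedom of 17.1 to 85.2). CD44Neg replicate 6 stood apart from the other E9.5 CD44Neg libraries. Its 3 pairs reached 61.1 to 85.2, the other 3 pairs 17.1 to 20.4, and the 45S pre-ribosomal RNA Rn45s took 1.92% of its counts. That RNA took 9.11% to 19.3% of the counts in the other 6 CD44Neg libraries and 6.82% to 9.26% in CD44LowKitPos. The date in the labels changes with the stage, so stage and date cannot be told apart. The labels do not say whether the libraries of a group came from separate embryos or litters, so p-values measure the spread between these samples. In bulk RNA a lower level can mean fewer cells of a type or less RNA per cell, and these cannot be told apart.

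Levels are given as normalized CPM, that is counts scaled to the same library total (CPM) after TMM normalization, and a fold change as log2 of CD44LowKitPos over CD44Neg with stage as covariate. Of 12089 genes tested with edgeR's quasi-likelihood test, 928 (7.68%) were called at a Benjamini-Hochberg adjusted p under 0.05. CD44LowKitPos was higher for 451 of them (3.73% of the genes tested), of which 129 had no CD44Neg library with 10 counts and so were tested through CD44LowKitPos, and lower for 477 (3.95%), and the median fold change of all tested genes was 0.01. Such genes, 290 of those tested, are said below to have passed the filter through CD44LowKitPos alone. Genes with 10 counts in a single CD44Neg library are not counted among them, though they could not have passed on CD44Neg alone either. The called genes were far apart, with a median absolute log2 fold change of 2.17. In 402 of the 451 and 394 of the 477 the populations did not overlap in any library, while 835 of all tested genes (6.91%) lay above and 644 (5.33%) below every CD44Neg library. Within E10, where 2 CD44LowKitPos libraries met 3 CD44Neg libraries, 777 genes were called. Within E9.5, with 1 against 4, 32 were called, all of them among the 928. The number of calls depended on single CD44LowKitPos libraries: it was 357 without replicate 18, 461 without replicate 17 and 1125 without replicate 19.

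The plot of called genes per list sums up the comparison over 28 lists of genes.

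**Figure D1:**
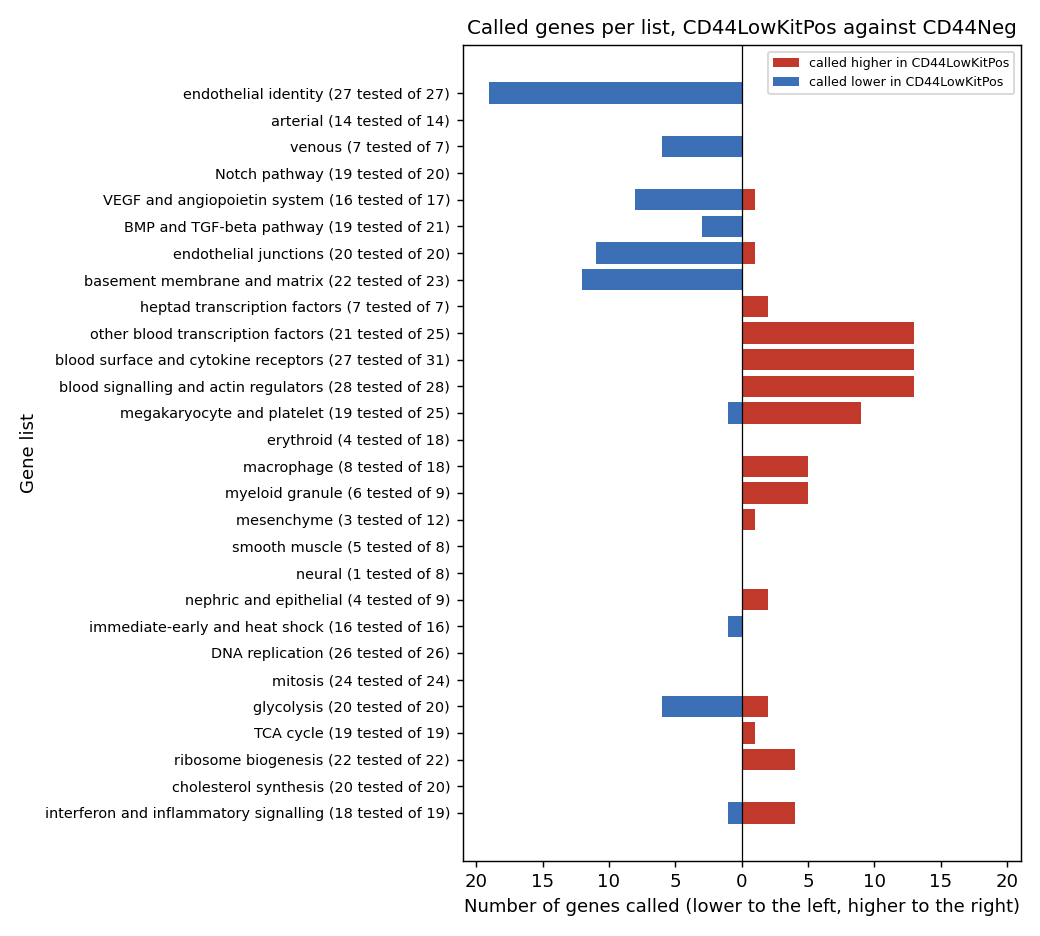
Number of genes called higher (bars to the right) or lower (bars to the left) in CD44LowKitPos than in CD44Neg at an adjusted p under 0.05, for each of 28 gene lists, with the number tested and the size of the list. Endothelial identity has 19 members called lower and 0 higher, and the lists of blood surface receptors, blood signalling genes and other blood transcription factors have 13 called higher each and 0 lower.

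The sorting markers followed the gates, which is no finding since the cells were sorted on their proteins. Cd44 was at 227, 358 and 208 normalized CPM in CD44LowKitPos replicates 17, 18 and 19 and at 17.9 to 60.7 (median 29.3) in CD44Neg. Kit was at 250.4, 272 and 185 against 18.9 to 60.5 (median 45.9). Cdh5 was detected in every library, at 74.9, 219 and 227 against 198 to 659.6 (median 309.9), and its ranges overlapped. CD44Neg carried the markers of its labelled type: the 27 genes of the endothelial list summed to 9341 to 12953 normalized CPM in its libraries.

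Of 28 blood transcription factors tested, 15 were called higher in CD44LowKitPos (2 of 7 in the heptad described below and 13 of 21 others) and 0 lower. Runx1, without which the transition does not occur, was at 119, 167 and 117 normalized CPM in CD44LowKitPos replicates 17, 18 and 19. In CD44Neg it ranged from 0 to 22.7 with a median of 5.25. All 3 CD44LowKitPos libraries lay above all 7 CD44Neg libraries, and the log2 fold change was 5.15 (SE 0.93, adjusted p = 0.00553). Spi1, which encodes PU.1, a master regulator of myeloid cells, was at 262, 234 and 126 against 0 to 3.77 (median 1.21), again without overlap. Its log2 fold change of 7.33 (SE 0.77, adjusted p = 3.4e-04) kept its call without any single library. Ikzf1, the lymphoid and stem cell regulator Ikaros, was at 143, 69.9 and 50.6 and had no count in any CD44Neg library. Since a count of 0 allows up to 3 counts per library, Ikzf1 was at least 141-fold higher. A gene at 0 in every CD44Neg library was tested only through CD44LowKitPos and could only be higher there. Such genes are given as levels, and a p is given only where their call was lost.

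Runx1 belongs to the heptad, a group of 7 transcription factors that bind blood stem cell enhancers together and whose members endothelium also uses. All 7 were tested and 2 were called higher, Runx1 and Lyl1. Lyl1, a partner of the blood factor Lmo2, was at 251, 172 and 89.4 against 45.3 to 87.8 (median 61.9), with log2 fold change 1.20 (SE 0.24, adjusted p = 0.00947) with the E9.5 library just above the CD44Neg range. Gata2, which is needed for the emergence of blood stem cells, was at 43.3, 68.2 and 40.3 against 9.63 to 33.1 (median 20.9). Its 3 libraries lay above every CD44Neg library, but its log2 fold change of 1.15 (SE 0.34) had an adjusted p of 0.0574. The other members missed the threshold: Tal1 at a log2 fold change of 0.84 (adjusted p = 0.210), Lmo2 at 0.54 (adjusted p = 0.377) and Fli1 at -0.13 (adjusted p = 0.815). Erg, a regulator of endothelial identity as well as of stem cells, was at 14.7, 15 and 18.8 against 21.2 to 56.3 (median 37.6). CD44LowKitPos thus had the lowest Erg of the 10 libraries, with an adjusted p of 0.0996. Log2 fold changes within the heptad ran from 5.15 for Runx1 to -1.18 for Erg, with a median of 0.84.

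Of 25 other blood transcription factors, 21 were tested, and 13 were called higher and 0 lower. Only 2 of the 13, Ikzf1 and Gfi1b, passed the filter on low counts through CD44LowKitPos alone. Gfi1, Myb, Nfe2 and Hlf each had at least 10 counts in a single CD44Neg library. They could not have passed on CD44Neg alone either, which favours a higher level in them. Gfi1b, a repressor that works with Gfi1 to silence endothelial genes, was at 74.9, 23.8 and 38.0 normalized CPM and had no count in CD44Neg, which is at least 73.4-fold higher. Gfi1 itself was at 28.7, 32.1 and 45.4 against 0 to 4.57 (median 0). Its adjusted p was 0.0138, and 0.0694 without CD44LowKitPos replicate 19. Myb, the proto-oncogene on which definitive blood depends, was at 115, 208 and 58.8, and 6 of the 7 CD44Neg libraries had no count, the other being at 6.42. Nfe2, a megakaryocyte and erythroid factor, was at 158, 115 and 64.7 against 0 to 2.61 (median 0), with log2 fold change 7.18 (SE 0.89, adjusted p = 8.1e-04). Hlf, a stem cell factor, was at 34.9, 68.0 and 18.7 against 4.61 in CD44Neg replicate 4 and 0 in the other 6 (adjusted p = 0.0194). Its adjusted p was 0.0761 without CD44LowKitPos replicate 18 and 0.0532 without CD44Neg replicate 8. The remaining called members, from Ikzf2 (log2 fold change 4.83) to Cbfa2t3 (1.33), were Ikzf2, Bcl11a, Meis1, Mycn, Hoxa9 and Cbfa2t3, and all 13 lay above every CD44Neg library. The count was 11 to 13 with any single library left out and 12 within E10.

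The plot of blood genes by library sets these levels side by side with those of CD44LowKitNeg, the CD44Low cells without Kit.

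**Figure D2:**
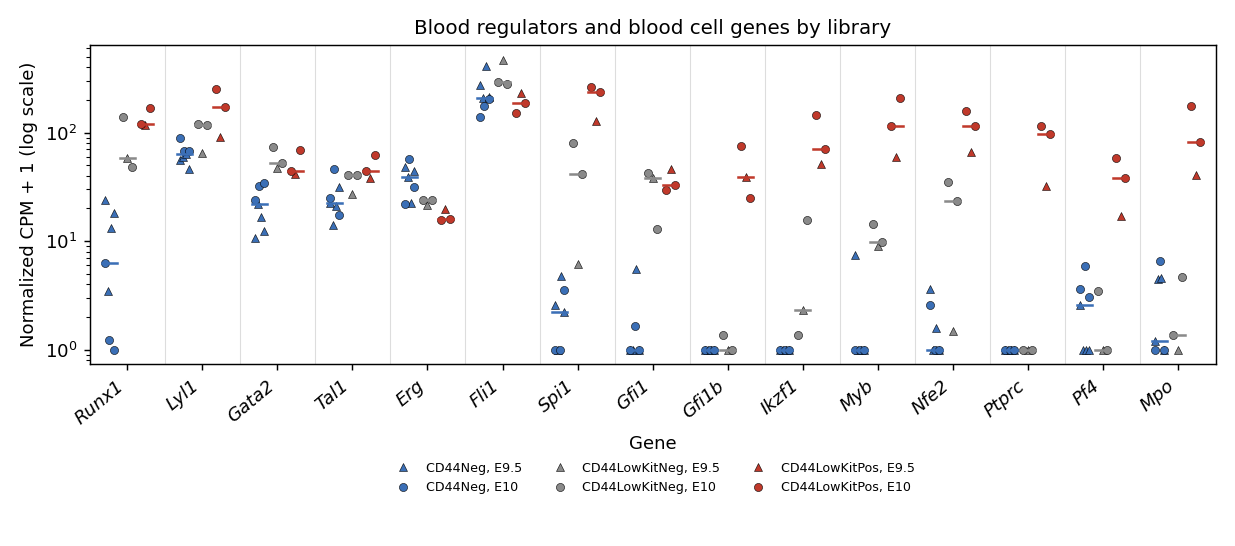
Normalized CPM plus 1 on a log scale for 15 blood regulators and blood cell genes in CD44Neg, CD44LowKitNeg and CD44LowKitPos libraries of E9.5 (triangles) and E10 (circles), 1 point per library, with the median of each population as a bar. Ptprc, Gfi1b and Ikzf1 sit at 0 in all 7 CD44Neg libraries and between 23.8 and 143 in CD44LowKitPos, while Tal1 and Fli1 overlap.

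Blood cell surface genes and cytokine receptors were the next group. Ptprc, which encodes the pan-leukocyte phosphatase CD45, was at 114, 95.1 and 31.4 normalized CPM in CD44LowKitPos replicates 17, 18 and 19 and at 0 in all CD44Neg libraries. It was at least 129-fold higher. Adgrg1 (GPR56), an adhesion receptor of stem cells, was at 500.1, 383 and 98.1 against 0 to 9.63 (median 3.45), with log2 fold change 6.20 (SE 0.86, adjusted p = 0.00153). Itgb3, the platelet integrin chain also known as CD61, was even across stages at 55.3, 48.8 and 53.6 against 0 to 3.68 (median 1.47; log2 fold change 5.05, SE 0.80, adjusted p = 0.00276). Its partner Itga2b (CD41) was at 70.4, 38.0 and 14.7 against 0.202 to 11 (median 3.18), without overlap but with an adjusted p of 0.0866. Spn (CD43), which is used with CD41 and CD45 to order the steps of blood cell emergence, was at 16.1, 18.2 and 7.73 against 0 to 4.57 (median 0), with an adjusted p of 0.0571. It was 0.00716 without CD44Neg replicate 6, the library with the highest CD44Neg level. Over 24 alternatives Spn stayed uncalled in 16 and was called in 8, among them the looser threshold of 0.1. Flt3, a receptor of early progenitors, had 27.6, 9.84 and 1.29 against 0 in all 7 (at least 20.8-fold higher).

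Of the 31 surface genes and receptors, 27 were tested, 13 were called higher and 0 lower. The filter on low counts was met through CD44LowKitPos alone by 10 of the 27, and 8 of the 13 called are among those 10, so the filter favoured a higher level in them. The other 5 were Adgrg1, Itgb3, Ly6e, Itga4 and Cd47. Of the list as a whole, 18 members lay above every CD44Neg library. The count fell to 7 without CD44LowKitPos replicate 18. Cd53, a leukocyte tetraspanin, was at 3.95, 30.0 and 15 against 0 in all 7. The adjusted p of Ly6e was 0.0439, and 0.0639 to 0.128 without 7 of the 10 libraries. The calls of Cd53 and Csf1r, both at 0 in CD44Neg, were lost without CD44LowKitPos replicate 18 and replicate 19 respectively (adjusted p = 0.0808 and 0.0726), and that of Csf1r without 5 CD44Neg libraries (0.0505 to 0.0635).

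Signalling and actin genes of blood cells, which serve migration and receptor signalling, gave 13 called higher and 0 lower of 28. All were tested, 8 of them through CD44LowKitPos alone, and the filter favoured a higher level in the 6 of the 13 that are among those 8. Those at 0 in CD44Neg, Rac2, Rgs18, Was and Evi2a, are given as levels. Rac2, a small GTPase of blood cells, was at 146, 52.7 and 24.8 against 0 in every CD44Neg library (at least 119.8-fold higher). Rgs18, a regulator of G protein signalling in platelets, was at 85.5, 36.5 and 38.5 against 0 (at least 86.1-fold). Was, the Wiskott-Aldrich protein that drives actin branching in blood cells, was at 45.3, 23.6 and 17.4 against 0 (at least 46.3-fold). Evi2a was at 21.8, 40.2 and 10.5 against 0 (at least 38.9-fold). Outside the lists, Sla, an adaptor that dampens antigen receptor signalling, reached 157, 62.7 and 38.6 against 0 (at least 139-fold). Perp, a desmosome-linked membrane protein, reached 28.9, 9.97 and 71.2 against 0 (at least 59.1-fold), and Rnase6 67.0, 22.5 and 19.3 against 0 (at least 58.4-fold).

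With no test, 79 genes had at least 10 counts in all 3 CD44LowKitPos libraries and no count in any of the 7 CD44Neg libraries, and 5 genes had the opposite pattern, for which all 7 CD44Neg libraries had to reach 10 counts. Of the 79, 16 are in the blood, megakaryocyte, macrophage or myeloid lists, and 32 also had no count in the 3 CD44LowKitNeg libraries of E9.5 and E10. Ptprc, Rgs18, Perp, Rnase6, Tyrobp and Evi2a were among the 32, so of the 13 libraries of these stages only the CD44LowKitPos libraries had counts for them.

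The start regions of 5 of these genes, and of Kcne3, which had the opposite pattern, are shown because they belong to the genes that were on in one population and at 0 in the other. They were chosen after their letters were seen, 4 with a match and 2, Ikzf1 and Gfi1b, without one. Each run is the 250 bases before the start site, 5′ to 3′ on the gene's strand, from RefSeq's promoter table on GRCm38.p6. Capitals mark matches to the core letters of 3 factor families on either strand: TGTGGT for RUNX, AGATAA for GATA and GGAAGT for ETS.
Ptprc: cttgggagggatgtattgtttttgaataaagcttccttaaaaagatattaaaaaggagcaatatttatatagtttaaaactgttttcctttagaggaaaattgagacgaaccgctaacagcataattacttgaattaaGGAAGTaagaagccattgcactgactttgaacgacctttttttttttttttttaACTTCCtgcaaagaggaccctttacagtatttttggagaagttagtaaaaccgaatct
Was: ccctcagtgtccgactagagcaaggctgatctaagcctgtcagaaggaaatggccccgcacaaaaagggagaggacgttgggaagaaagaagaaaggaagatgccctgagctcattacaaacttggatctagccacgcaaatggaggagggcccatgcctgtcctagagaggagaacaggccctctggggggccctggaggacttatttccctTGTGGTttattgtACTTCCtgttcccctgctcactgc
Prtn3: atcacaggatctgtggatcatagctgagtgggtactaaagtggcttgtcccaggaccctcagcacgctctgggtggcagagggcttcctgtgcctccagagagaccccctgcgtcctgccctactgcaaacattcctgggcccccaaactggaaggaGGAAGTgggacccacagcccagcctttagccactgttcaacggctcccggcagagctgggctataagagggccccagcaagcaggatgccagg
Kcne3: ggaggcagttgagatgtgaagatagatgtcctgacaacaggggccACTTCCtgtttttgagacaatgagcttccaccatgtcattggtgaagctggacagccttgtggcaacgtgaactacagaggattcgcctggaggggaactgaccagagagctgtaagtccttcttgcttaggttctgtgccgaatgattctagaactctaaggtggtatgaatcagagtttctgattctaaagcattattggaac
Ikzf1: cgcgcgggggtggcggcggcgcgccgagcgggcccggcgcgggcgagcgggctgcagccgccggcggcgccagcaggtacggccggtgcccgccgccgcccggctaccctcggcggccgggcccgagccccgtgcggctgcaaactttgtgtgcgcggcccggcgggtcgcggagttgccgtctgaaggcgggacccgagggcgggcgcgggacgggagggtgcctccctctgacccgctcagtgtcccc
Gfi1b: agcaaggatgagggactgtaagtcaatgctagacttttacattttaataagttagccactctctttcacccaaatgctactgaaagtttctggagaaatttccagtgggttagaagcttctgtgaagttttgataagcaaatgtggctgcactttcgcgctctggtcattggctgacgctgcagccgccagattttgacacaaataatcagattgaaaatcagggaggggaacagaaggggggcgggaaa
They lie at chr1:138175306-138175555 (minus strand), chrX:8090492-8090741 (minus strand), chr10:79879417-79879666 (plus strand), chr7:100176420-100176669 (plus strand), chr11:11685675-11685924 (plus strand) and chr2:28621983-28622232 (minus strand). Ptprc, Kcne3 and Ikzf1 have 2 entries each in the table, of which the first is shown. Was held a RUNX match starting 37 bases and an ETS match starting 24 bases before the start site. Ptprc held 2 ETS matches, at 112 and 58 bases, Prtn3 held 1, at 93 bases, and Kcne3 held 1, at 205 bases. Over all genes the letters were common: RUNX letters were in 14.1% of 355 matched genes called higher, 11.7% of 358 called lower and 10.5% of 9318 tested. ETS letters were in 25.4%, 19.3% and 23.8%, and GATA letters in 8.45%, 4.75% and 5.60%. Over the whole table of 27025 promoters the shares were 14.2% for RUNX, 20% for ETS and 10.3% for GATA. Of the 15 heptad and other blood transcription factors called higher, 12 were matched, and 1 held RUNX, 2 ETS and 0 GATA letters. These are counts of letters, not of bound sites.

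Genes of mature blood lineages were present beside the stem cell genes. Of 25 megakaryocyte and platelet genes, 19 were tested, 9 were called higher and 1 lower, and 3 of the 9 passed the filter through CD44LowKitPos alone. Pf4, platelet factor 4, was at 57.0, 37.5 and 16.1 normalized CPM against 0 to 4.86 (median 1.60; log2 fold change 4.43, SE 0.89, adjusted p = 0.00971). Without CD44LowKitPos replicate 17 or 19 its adjusted p was 0.0524 or 0.0742. Gp9, part of the platelet receptor for von Willebrand factor, was at 22.3, 8.62 and 3.86 and F2rl2 (PAR3), a thrombin receptor chain, at 3.95, 3.50 and 24.0, both against 0. Their calls were lost without CD44LowKitPos replicate 17 (adjusted p = 0.106 and 0.0519) or 18 (0.0648 and 0.0578), and that of F2rl2 without replicate 19 (0.139). Clec1b, the platelet receptor CLEC-2, was the member called lower, at 2.37, 2.29 and 50.2 against 91.2 to 489.9 (median 215; log2 fold change -4.07, SE 0.68, adjusted p = 0.00365). The list as a whole therefore split: 10 members lay above every CD44Neg library and 1 below. Tubb1 and Gp6, of late platelet formation, had no count in the 10 libraries, and the count called higher was 5 without CD44LowKitPos replicate 17.

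Myeloid granule genes gave 5 called higher of 6 tested, out of 9. The filter was passed through CD44LowKitPos alone by 2 of the 6 and 1 of the 5 (Prtn3), which favours a higher level in them. Mpo, the peroxidase of neutrophil granules, was at 175, 80.8 and 39.8 against 0 to 5.52 (median 0.201; log2 fold change 5.49, SE 1.07, adjusted p = 0.00859). Prtn3, a granule protease, was at 61.9, 30.2 and 34.6 against 0 in every CD44Neg library (at least 68.0-fold higher). Srgn, the proteoglycan that packs granules, was at 257, 462 and 199 against 0 to 34.7 (median 7.43; adjusted p = 0.00812). Serpinb1a, an inhibitor of granule proteases, was at 29.1, 3.64 and 49.1 against 0 to 2.95 (median 0), with an adjusted p of 0.0101 that became 0.0590 without replicate 19. Ctsg, a protease of mature granules, had no count in the 10 libraries.

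Markers of other cell types moved with the comparison as follows, and their part in the results was not tested unless a value below bears on it directly. The 18 macrophage genes summed to 317 to 414 normalized CPM in CD44LowKitPos and 3.23 to 28.8 in CD44Neg, with 5 of 8 tested members called higher, of which 3 of the 8 and 2 of the 5 passed the filter through CD44LowKitPos alone. The count was 3 without CD44LowKitPos replicate 17 and 3 without replicate 19. Lyz2 (lysozyme) was at 216, 193 and 155 against 0 to 5.08 (median 0; log2 fold change 7.59, SE 0.89, adjusted p = 6.1e-04). Of the CD44Neg libraries, replicate 9 alone had at least 10 counts of Lyz2. Lyz2 is thus not among the 2 of the 5, but could not have passed the filter on CD44Neg alone, which favours a higher level. Tyrobp (DAP12, a signalling adaptor of myeloid and NK cells) was at 38.5, 24.4 and 15 against 0 (at least 41.8-fold). Fcer1g, an Fc receptor chain, was at 84.2, 44.1 and 52.7 against 0 to 10.1 (median 0), with an adjusted p of 0.0171 that became 0.0671 without replicate 17 and 0.139 without replicate 19. Fcgr3, another Fc receptor, was at 57.3, 37.1 and 99.0 against 0 to 20.4 (adjusted p = 0.00489), Csf1r, the receptor of the macrophage growth factor, at 8.21, 9.84 and 1.61 against 0, and Fcgr1 at 2.05, 3.77 and 1.29 against 0. The complement genes C1qa, C1qb and C1qc, and Adgre1, Timd4, Trem2 and Ctss, had no count in any of the 10 libraries. Of 18 erythroid genes 4 were tested and 0 called, their sum was 96.4 to 187 against 25.2 to 89.6, and the embryonic globin Hbb-y was at 4.90, 15.5 and 26.4 against 0 to 21.4, with overlap. The adult globin genes Hba-a1, Hbb-bs and Hbb-bt had no count. Smooth muscle genes summed to 219.8 to 387 against 20.4 to 290.2 (0 called of 5), neural genes to 1.26 to 121 against 22.0 to 54.1 (0 of 1), and mesenchyme genes to 19.3 to 41.6 against 0 to 37.9 (1 of 3, Postn). Postn had counts in CD44Neg replicate 10 alone of the CD44Neg libraries, at 3.22, and could not have passed the filter on CD44Neg alone, which favours a higher level. Nephric and epithelial genes summed to 69.7 to 82.2 against 0.807 to 35.7, with 2 of 4 called, 1 of them (Pax8) having passed the filter through CD44LowKitPos alone. These were Krt18, a keratin, at 64.4, 74.9 and 69.2 against 0 to 35.7, and Pax8, a kidney factor, at 3.95, 7.28 and 5.64 against 0. The call of Pax8 was lost without any of the 3 CD44LowKitPos libraries (adjusted p = 0.0991 to 0.143) or CD44Neg replicate 8 (0.0523). The adjusted p of Krt18, 0.0164, became 0.0507 without CD44LowKitPos replicate 18, and that of Postn, 0.0138, became 0.0813 without it and 0.137 without replicate 19.

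Endothelial genes went the other way. Of the 27 genes of endothelial identity, all tested, 19 were called lower and 0 higher, and the median log2 fold change was -1.63. Kdr (VEGFR2), the main receptor of the vascular growth factor VEGF, was at 12.2, 34.1 and 104 normalized CPM in CD44LowKitPos replicates 17, 18 and 19 against 287 to 488 (median 413) in CD44Neg. The populations did not overlap, and the E9.5 library was the highest of the 3 (log2 fold change -3.15, SE 0.50, adjusted p = 0.00288). Flt1 (VEGFR1) was at 19.1, 44.2 and 97.8 against 212 to 359.7 (median 284; log2 fold change -2.42, SE 0.41, adjusted p = 0.00374). Emcn, a sialomucin of capillaries and veins, was at 72.8, 66.4 and 320.3 against 912 to 1302 (median 1136; log2 fold change -2.94, SE 0.42, adjusted p = 0.00178). Ets1, an ETS factor of vessels, was at 28.6, 26.0 and 90.8 against 198 to 735 (median 334), with log2 fold change -2.76 (SE 0.31, adjusted p = 5.5e-04).

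Further members of the list were as follows. Tek (TIE2), the angiopoietin receptor, kept 111, 242 and 230.1 against 352 to 491 (median 476; log2 fold change -1.23, SE 0.24, adjusted p = 0.00773). Cd93, a lectin-like receptor of endothelium, was at 80.2, 85.2 and 283 against 322 to 526 (log2 fold change -1.47, adjusted p = 0.00285), and Eng (endoglin) at 138, 137 and 96.8 against 219.6 to 460.5 (log2 fold change -1.65, adjusted p = 7.0e-04). Cldn5, the tight junction claudin of endothelium, was at 44.2, 109.8 and 375 against 735 to 1162 (median 939; log2 fold change -2.53, adjusted p = 0.00680), and its adjusted p was 0.0503 without replicate 18. Cd34, shared by endothelium and blood progenitors, was the 1 member with a fold change above 0, at 1259, 1257 and 974 against 539 to 1242 (log2 fold change 0.17, adjusted p = 0.735). Endothelial RNA was still present, since the list summed to 3160 to 5983 normalized CPM in CD44LowKitPos. The count of members called lower was 8 without CD44LowKitPos replicate 18, 10 without replicate 17, and 24 without replicate 19.

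**Figure D3:**
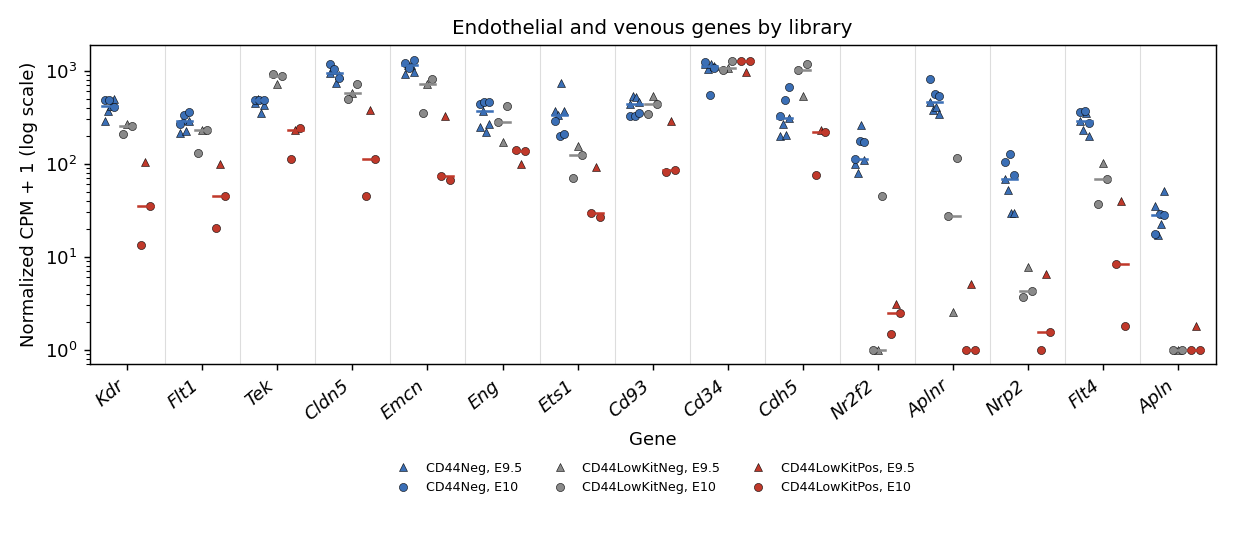
Normalized CPM plus 1 on a log scale for 15 endothelial and venous genes in CD44Neg, CD44LowKitNeg and CD44LowKitPos libraries of E9.5 (triangles) and E10 (circles), 1 point per library, with population medians as bars. For Kdr, Flt1, Emcn, Nr2f2, Aplnr and Flt4 every CD44LowKitPos library lies below every CD44Neg library, whereas Cd34 and Cdh5 overlap.

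The venous list had the lowest median fold change of the 28 lists. Of its 7 genes, all tested, 6 were called lower, with a median log2 fold change of -4.43, and the same number lay below every CD44Neg library. Against CD44LowKitNeg of the same stages only 2 of the 7 were called lower, so the drop is not shown to be particular to CD44LowKitPos. Nr2f2 (COUP-TFII), the factor that specifies veins, was at 0.474, 1.48 and 2.09 normalized CPM against 78.4 to 257 (median 112), with log2 fold change -6.71 (SE 0.58, adjusted p = 8.3e-05). Aplnr, the apelin receptor, was at 0, 0 and 4.03 against 343 to 801 (median 458; adjusted p = 3.1e-04), and its ligand Apln, from the VEGF and angiopoietin list, at 0, 0 and 0.805 against 16 to 50.3 (median 27.1; adjusted p = 0.00176). Ligand and receptor were thus both near 0 in CD44LowKitPos. Flt4 (VEGFR3) was at 7.27, 0.808 and 38.3 against 196 to 362 (median 285; log2 fold change -4.43, SE 0.78, adjusted p = 0.00489), and its co-receptor Nrp2 at 0, 0.539 and 5.48 against 28.2 to 127 (median 66.6; log2 fold change -5.06, adjusted p = 0.00909). In the list of 17 VEGF and angiopoietin genes, 16 were tested, 8 were called lower and 1 higher. The gene that rose was Angpt1, the ligand of Tek, at 330.3, 457 and 105 against 0 to 9.55 (median 0; log2 fold change 6.99, SE 1.18, adjusted p = 0.00377). The receptor was therefore lower and its ligand higher in the same libraries.

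Of 21 BMP and TGF-beta genes, 19 were tested, and 3 were called lower and 0 higher: Bmp4, Smad1 and Eng. Bmp4, a ligand that patterns the aorta, was at 0, 1.35 and 5.80 against 26.8 to 143 (median 49.2; log2 fold change -4.74, SE 0.95, adjusted p = 0.00962), and its adjusted p was 0.0583 without replicate 18. Smad1, which carries the BMP signal to the nucleus, was at 1.90, 7.55 and 9.98 against 14.3 to 40.2 (median 32.3; log2 fold change -2.12, SE 0.54, adjusted p = 0.0318). Its adjusted p was 0.0517 to 0.102 without 7 of the 10 libraries.

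Some of the genes of endothelial junctions and matrix were lower as well. Of 20 junction genes, all tested, 11 were called lower, 1 higher and 8 not called, Cdh5 among the last (adjusted p = 0.144). Jup (plakoglobin) was at 17.2, 13.5 and 46.5 against 52.4 to 213 (median 149.9; log2 fold change -2.52, SE 0.49, adjusted p = 0.00817). Pcdh12, a vascular protocadherin, was at 0, 3.10 and 6.92 against 18.9 to 64.4 (median 43.7; adjusted p = 0.0287, and 0.134 without CD44LowKitPos replicate 18). Ocln (occludin), the gene that rose, was at 41.9, 85.0 and 80.0 against 1.15 to 31.2 (median 14.3; log2 fold change 2.56, SE 0.61, adjusted p = 0.0231, and 0.109 without replicate 18). Of 23 basement membrane and matrix genes, 22 were tested, 12 were called lower and 0 higher, with a median log2 fold change of -2.17. Nid2 (nidogen) was at 1.42, 4.04 and 25.8 against 53.7 to 157 (median 107; log2 fold change -3.50, SE 0.61, adjusted p = 0.00465). Col5a2 was at 7.90, 7.55 and 11 against 46.5 to 104 (median 55.3; log2 fold change -2.88, SE 0.35, adjusted p = 7.9e-04). Hspg2 (perlecan) was at 2.37, 6.20 and 15.1 against 27.0 to 115 (median 53.1), with an adjusted p of 0.0135 that became 0.0834 without replicate 18. Col15a1 had an adjusted p of 0.0445, which passed 0.05 without any of 7 libraries. Without CD44LowKitPos replicate 18, 2 junction genes and 4 matrix genes were called lower.

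Of the 477 genes called lower, 14 had no count in any CD44LowKitPos library, and 76 of the 451 called higher had none in any CD44Neg library. These numbers are not set against each other, since the populations have 3 and 7 libraries. Kcne3, a potassium channel subunit, had no count in CD44LowKitPos and 63.8 to 211 normalized CPM (median 139) in CD44Neg, at least 305-fold lower. Gas7, a cytoskeletal protein, was at 0 against 7.62 to 36.0 (at least 49.4-fold lower), and Lama1, the laminin chain of early basement membranes, at 0 against 8.54 to 39.1 (at least 46.8-fold). Bik, a pro-apoptotic BCL2 family member, was at 0 against 2.53 to 24.8 (at least 26.0-fold) and Kbtbd11 at 0 against 3.34 to 21.1 (at least 24.2-fold). Gas7 and Kbtbd11 also had no count in CD44LowKitNeg. The other genes were low there too, in CD44LowKitNeg replicates 14, 15 and 16. Kcne3 was at 12.6, 0 and 6.16, Lama1 at 1.09, 0 and 0, and Bik at 0.969, 0.890 and 0. These low levels were therefore not particular to CD44LowKitPos. 1110032F04Rik was at 0 against 0.605 to 21.4 (at least 23.1-fold lower), and its call was lost without CD44LowKitPos replicate 17 (adjusted p = 0.0637) or 18 (0.0741). Lhx6 and Prl3b1 had at most 0.135 and 1.62 in any CD44LowKitPos library, with adjusted p of 0.00155 and 0.00202.

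Several arterial genes had levels that differed between the stages within CD44LowKitPos. Over both stages 0 of 14 were called, although all 14 had a fold change below 0 and the median was -1.72. Against CD44LowKitNeg, 6 of the 14 were called lower over both stages. Both E10 libraries of CD44LowKitPos lay below every CD44Neg library for 12 of the 14, Bmx and Cxcr4 being the exceptions, against 11.1% of all genes tested. The E9.5 library did so for 3, Notch4, Nrp1 and Acvrl1, against 9.71%. Gja5, the arterial connexin 40, was at 1.74 and 5.66 normalized CPM in replicates 17 and 18 and at 102 in replicate 19, against 48.3 to 126 (median 85.6). Efnb2 (ephrin B2), the classic arterial marker, was at 0.948, 8.22 and 125 against 80.8 to 128 (median 109.6). Gja4 (connexin 37) was at 14.4, 42.3 and 397 against 183 to 422 (median 323), and Jag1, a Notch ligand, at 6.32, 0.674 and 139.9 against 59.0 to 187 (median 101). In each of these 4 genes, which were picked after their values were seen, the E9.5 library lay inside the range of CD44Neg and both E10 libraries lay below it. Within E10 alone 9 of the 14 were called lower, against 4.32% of all genes tested there, with a median log2 fold change of -4.23. Without replicate 19 the count was 11. Within E9.5 the median was 0.11, and calls there are not compared, since 1 library against 4 gave only 32 calls among 12143 genes.

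The population difference was tested for a dependence on stage as an interaction over 13124 genes, with 1 CD44LowKitPos library at E9.5 that was assumed to vary like the others. It was called for 125 genes (0.952%), and in 123 of them the difference was more negative at E10. Of the 14 arterial genes, 7 were among them: Gja5 (difference between the log2 fold changes -5.43, SE 0.68, adjusted p = 6.0e-04), Gja4 (-3.91, adjusted p = 0.00652), Efnb2 (-4.63, adjusted p = 0.00811), Jag1 (-5.39, adjusted p = 0.0102), Notch4 (-4.41, adjusted p = 0.0305), Acvrl1 (-3.92, adjusted p = 0.0430) and Hey2 (adjusted p = 0.0451). Acvrl1 encodes the receptor ALK1, and Hey2 is a Notch target that had no count at E10 and was at 23.5 at E9.5, against 3.98 to 30.5. The list of endothelial identity had 6 of 27, among them Emcn (-2.41, adjusted p = 4.1e-04) and Plvap, the venous list 4 of 7, and the matrix list 6 of 22, among them Col4a1 at 44.1, 71.3 and 214 against 325 to 681. No member of the heptad, blood transcription factor, blood surface and blood signalling lists was called, which does not show that they were independent of stage. In simulated data the interaction test recovered 0 of 49 genes with 2-fold, 1 of 47 with 4-fold, 13 of 49 with 8-fold and 22 of 50 with 16-fold differences, and the median of the blood surface list was 2.28. The lowest p belonged to Mest, an imprinted gene, at 5.84 and 17.9 at E10 and 1925 at E9.5, against 3543 to 6271 (difference -7.46, SE 0.53, adjusted p = 1.2e-05). The 6 arterial genes other than Hey2, and Plvap, Col4a1 and Mest were named after their values were seen. Stage, label date and the single E9.5 library cannot be told apart.

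Sox17, Dll4 and Notch1, which act in arterial fate, had the same order of levels without passing the interaction test. Sox17 was at 0, 4.45 and 67.8 against 43.4 to 132 (median 65.9), Dll4 at 1.42, 3.37 and 35.6 against 9.23 to 70.8 (median 38.0), and Notch1 at 15.2, 19.1 and 72.5 against 26.2 to 185 (median 114). Over both stages their adjusted p was 0.242, 0.249 and 0.110. Madcam1, an adhesion molecule of some endothelium, was at 0, 0 and 25.4 against 1.0 to 75.4 (median 25.0; adjusted p = 0.395). Of the 20 genes of the Notch pathway, 19 were tested, 0 were called over both stages, and 4 were called lower within E10. Against CD44LowKitNeg, 3 were called lower over both stages.

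**Figure D4:**
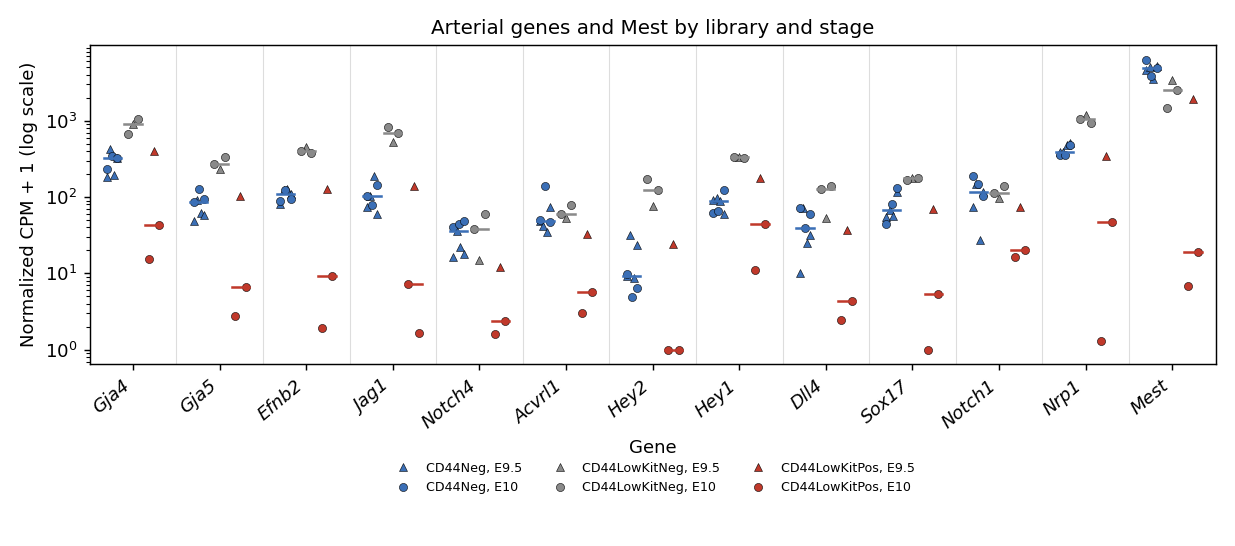
Normalized CPM plus 1 on a log scale for 12 arterial genes and Mest in CD44Neg, CD44LowKitNeg and CD44LowKitPos libraries of E9.5 (triangles) and E10 (circles), 1 point per library, with population medians as bars. The E9.5 CD44LowKitPos library lies above both E10 CD44LowKitPos libraries in all 13 genes, for example at 102 against 1.74 and 5.66 for Gja5.

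Genes of sugar metabolism moved in both directions. Of 20 glycolysis genes, all tested, 6 were called lower and 2 higher. Slc2a1 (GLUT1), the main glucose transporter of endothelium, was at 165, 242 and 393 normalized CPM against 597 to 780.5 (median 701; log2 fold change -1.39, SE 0.20, adjusted p = 0.00190). Pkm (pyruvate kinase), chosen after its values were seen, was at 872, 540.0 and 702 against 1424 to 1959 (median 1688; adjusted p = 0.00140). The lactate transporters diverged: Slc16a3 (MCT4) was at 7.11, 9.30 and 7.73 against 16.2 to 80.1 (median 44.2; log2 fold change -2.66, adjusted p = 0.00601), and Slc16a1 (MCT1) at 212, 271 and 106 against 32.9 to 87.6 (median 61.8; log2 fold change 1.61, adjusted p = 0.0126). The other gene that rose, Hk2 (hexokinase 2), was at 47.1, 34.5 and 93.1 against 10.2 to 56.8, with overlap (adjusted p = 0.0207). Without replicate 18 the adjusted p was 0.0631 for Slc16a1 and 0.0562 for Hk2, without replicate 17 it was 0.0854 for Hk2, and the counts without replicate 18 were 3 lower and 0 higher.

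Cell cycle genes gave no calls over both stages with edgeR: 0 of 26 DNA replication genes and 0 of 24 mitosis genes, with median log2 fold changes of 0.09 and 0.06. Within E10, 2 mitosis genes were called lower. Without replicate 19, 2 mitosis genes were lower and 2 DNA replication genes higher. DESeq2 and voom each called 1 DNA replication gene lower. In simulated data the test recovered 8 of 45 genes with 2-fold changes, so small differences could be missed. Of 22 ribosome biogenesis genes 4 were called higher and 0 lower. Npm1 (nucleophosmin) was at 5151, 6443 and 4441 against 2308 to 4173 (log2 fold change 0.83, SE 0.18, adjusted p = 0.0169). Gnl3 (nucleostemin) had a log2 fold change of 0.72 (adjusted p = 0.0243), Dkc1 (dyskerin) 0.73 (adjusted p = 0.0354) and Wdr12 1.17 (adjusted p = 0.0382). All 4 calls were lost without replicate 18, with adjusted p of 0.0805, 0.124, 0.167 and 0.0761 in that order, and the count was 0 without CD44Neg replicate 8. Of 19 TCA cycle genes, Sdhd alone was called, higher by 0.78 on the log2 scale (adjusted p = 0.0242, and 0.119 without replicate 18), and 0 of 20 cholesterol synthesis genes were called.

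Interferon-linked genes gave 4 called higher and 1 lower of 18 tested. Ifitm1, a membrane protein that blocks virus entry and marks early germ and blood cells, was at 169, 97.4 and 193 against 0 to 15.1 (median 3.18; log2 fold change 5.96, SE 0.66, adjusted p = 5.2e-04), and kept its call without any single library. Ifitm3 was at 178, 177 and 293 against 35.6 to 115 (median 83.1; log2 fold change 1.54, adjusted p = 0.00178), and the receptor chain Ifngr1 at 256, 274 and 191 against 66.3 to 152 (median 83.0; log2 fold change 1.25, adjusted p = 0.00769). The type I receptor chain Ifnar1 was lower, at 58.1, 74.2 and 76.3 against 94.1 to 223 (adjusted p = 0.0409), and its adjusted p was 0.0548 to 0.164 without 5 of the 10 libraries. Of 16 immediate-early and heat shock genes, which respond to handling of cells, 1 was called. It was Atf3, lower at 0, 2.16 and 12.9 against 45.1 to 65.0 (adjusted p = 0.0171, and 0.0913 without replicate 18).

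**Figure D5:**
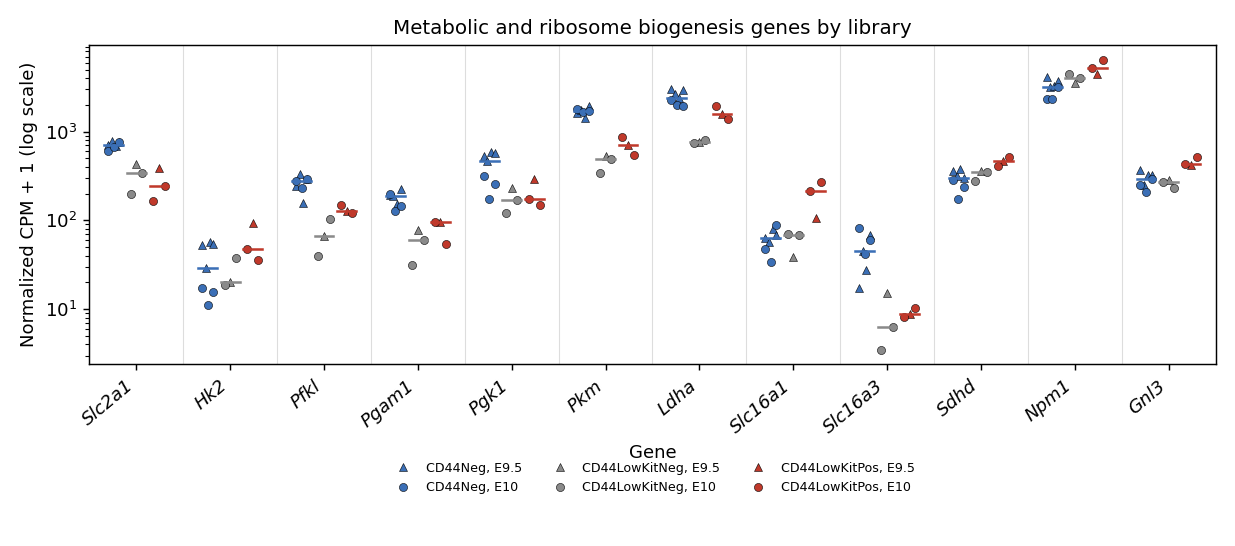
Normalized CPM plus 1 on a log scale for 12 metabolic and ribosome biogenesis genes in CD44Neg, CD44LowKitNeg and CD44LowKitPos libraries of E9.5 (triangles) and E10 (circles), 1 point per library, with population medians as bars. Every CD44Neg library lies above every other library for Slc2a1 and Pkm, and every CD44LowKitPos library, at 106 to 271, above every other library for Slc16a1.

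Against the 3 CD44LowKitNeg libraries of the same stages, CD44LowKitPos was higher for 406 of 11881 genes tested (3.42%) and lower for 446 (3.75%) in the fit of 13 libraries. Members of the lists are counted here as tested against CD44Neg. Of the heptad, 0 of 7 were called. Of the other blood transcription factors, 2 of 21 were higher and 1 lower. Of the surface genes 2 of 27 were higher, and of the blood signalling genes 9 of 28. Lower were 18 of 27 endothelial identity genes, 11 of 20 junction genes and 12 of 22 matrix genes. Among single blood genes, Ptprc was at 0 in all 3 CD44LowKitNeg libraries, Gfi1b at 0, 0.356 and 0, and Rac2 at 0, 0 and 1.29. Runx1, at 57.2, 137 and 47.4 in CD44LowKitNeg, was not called (log2 fold change 0.69, adjusted p = 0.738), and neither was Gfi1 (0.22, adjusted p = 0.946). Spi1, at 5.21, 79.7 and 40.5 in CD44LowKitNeg, lay between the ranges of the other populations in all 3 (adjusted p = 0.131). Of the DNA replication genes, 10 of 26 were higher in CD44LowKitPos than in CD44LowKitNeg, as were 9 of 22 ribosome biogenesis genes, 7 of 19 TCA cycle genes and 6 of 20 glycolysis genes, with 0 lower in each. The total depended on the samples in the fit: 53 genes were called with the 6 libraries alone, and 73 without CD44LowKitPos replicate 17, 409 without replicate 18, and 348, 338 and 224 without CD44LowKitNeg replicates 14, 15 and 16.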

How the data were processed

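RNA-seq (SMART-Seq2, polyA) was performed on 25 sorted cells per library. The authors clipped adaptors with FASTX, aligned the reads using RNA STAR, ran htseq-count for each gene, and deposited raw counts. The submitters' processing notes name mm10. The annotation, strand setting and tool versions are not given in the sources used here, so overlapping and antisense genes and near-identical copies are uncertain. No molecular identifiers were used, so floors cover counting error only.

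Groups came from the labels. The deposited table of 24454 genes was filtered (filterByExpr, minimum count 10), TMM-scaled and tested with edgeR 4.0.16 (quasi-likelihood, population plus stage, Benjamini-Hochberg, adjusted p under 0.05) in R 4.3.3. DESeq2 1.42.0 and limma 3.58.1 (voom) were alternatives, as were other filters, sample sets and each library left out. A group at 0 was set to a floor of 3 counts per library. Each SE was worked back from the test, as the absolute log2 fold change over the square root of its F statistic, and is approximate. All 3 fits were tested on simulated data. Of the changed genes tested for CD44LowKitPos against CD44Neg, 8 of 45 with 2-fold changes, 28 of 47 with 4-fold, 31 of 48 with 8-fold and 29 of 48 with 16-fold were recovered, with 8 false calls. Against CD44LowKitNeg these were 2 of 49, 22 of 47, 26 of 47 and 29 of 47, with 5 false calls, and for the stage dependence 0 of 49, 1 of 47, 13 of 49 and 22 of 50, with 0 false calls. Figures used matplotlib 3.10.9.

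Genes named were the sorting markers, the 10 largest increases and decreases without overlap at a mean of at least 10 normalized CPM, a set of EHT genes, and up to 4 called members per list with the largest fold changes. Other genes named were chosen after their values were seen. The members and lists were chosen with earlier results of these data known. Some genes that met the rule are not reported here.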

Additional observations from a re-analysis of the deposited data

Results flagged for a closer look

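In 12 of 111 genes named, 1 CD44Neg library lay far from the other 6. Chance gives this in about 1 in 20 groups of measured levels, a rate that cannot be applied to genes at or near 0. In Hlf, Myb and Postn the other 6 libraries were at 0, and in Gfi1, Spn, Lyz2 and Fcer1g they were at 0 to 2.18. It was replicate 9 for Acvrl1 (138 normalized CPM), Cd34 (539), Col15a1 (54.5) and Lyz2 (5.08). It was replicate 6 for Ets1 (735), Gfi1 (4.57), Krt18 (35.7) and Spn (4.57), replicate 4 for Hlf (4.61) and Myb (6.42), and replicate 10 for Fcer1g (10.1) and Postn (3.22).

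In 18 genes named, the population difference depended on stage in the interaction test with edgeR, which rests on 1 CD44LowKitPos library at E9.5. The difference between the log2 fold changes, E10 minus E9.5, was -8.53 for Hey2, -8.17 for Aplnr, -7.46 for Mest, -5.43 for Gja5, -5.39 for Jag1 and -5.38 for Nrp2. It was -4.65 for Bmp4, -4.63 for Efnb2, -4.41 for Notch4, -3.92 for Acvrl1, -3.91 for Gja4, -3.60 for Flt4 and -3.42 for Clec1b. It was -2.53 for Col4a1, -2.45 for Cldn5, -2.41 for both Emcn and Kdr, and -1.97 for Plvap. Hey2 and Aplnr had no count in the E10 CD44LowKitPos libraries, so their values depend on the prior count of the fit.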

How the results depend on the processing

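The 928 calls (451 higher, 477 lower) became 1626 (687, 939) with DESeq2's Wald test, 1445 (830, 615) with limma voom, 32 (16, 16) within E9.5, 323 (163, 160) at an adjusted p under 0.01 and 1521 (742, 779) under 0.1. At least 10 counts in every library left 290 higher of 780, or 37.2%, and E10 alone 290 higher of 777, or 37.3%. Leaving out 1 library gave 357 to 1125 calls, 183 to 512 higher and 174 to 699 lower. Other scalings, no filter, no stage term, wider sample sets, thinned counts and removal of Rn45s stayed within 1.5 times. The 125 stage-dependent genes became 222 with the Wald test and 94 to 168 without 1 of 9 libraries (all but CD44LowKitPos replicate 19, without which it cannot be fitted), where leaving out CD44Neg libraries was chosen after seeing the data. The 852 calls against CD44LowKitNeg became 53 with the 6 libraries alone and 73 to 1124 with 1 left out. The cause was not tested.

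Of 2695 values for 111 genes, 2376 kept direction and call, 245 lost the call, 65 gained it and 9 changed sign: Cd34 (-0.22 within E9.5, -0.02 without CD44Neg replicate 9) and, within E9.5, Dll4 (0.05), Efnb2 (0.17), Gja4 (0.47), Gja5 (0.64), Hey2 (0.42), Jag1 (0.40) and Lmo2 (-0.42). No paired analysis was possible because the replicate numbers are unique to each library and shared by no groups. Depth limits low genes: 3 counts are 0.404 to 0.483 normalized CPM in CD44LowKitPos and 0.455 to 0.737 in CD44Neg.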
